A study of Mus musculus with 8 samples.

Results

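Small DNA-protected structures of condensing spermatids lacking H2A.L.2 were set against the nucleosomes of round spermatids lacking H2A.L.2, the stage before. The members are all deposited summits on chromosomes 1 to 19 of these 2 lists, 4047666 small structures and 4700815 nucleosomes, or 8748481 of the 37461253 positions in the 8 lists of the series. In the study, testis cells of mice were fractionated into spermatocytes, round spermatids and condensing spermatids, and their chromatin was digested with micrococcal nuclease (MNase), which removes DNA that no protein covers, and the protected DNA was sequenced. Each stage had 1 library from WT and 1 from H2A.L.2-less mice, and condensing spermatids had 1 further library per genotype for fragments of about 40 to 80 bp, the small structures, separated from fragments of about 130 to 170 bp. Strain, age, the number of animals pooled and the way in which H2A.L.2 was removed are not given in the sources used here. All cells of both lists lacked H2A.L.2. The genotype label could not be checked from positions.

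In spermiogenesis the haploid nucleus is compacted as histones give way to transition proteins and then to protamines. H2A.L.2 is a testis-specific histone H2A variant that replaces part of the H2A late in this process, and nucleosomes that hold it are more open and allow transition proteins to load. Round spermatids still carry a regular nucleosome array, whereas condensing spermatids are in the course of replacement. A small structure near an earlier nucleosome summit thus places protected DNA of both cell types close together, in shorter fragments at the later stage. Such a match can also arise by chance, and it does not show that the same DNA stayed covered.

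Each position has a summit, the base with the highest coverage, a summit value, which is the coverage height there, and a fuzziness score, the authors' measure of how widely fragments scatter around the position. The median summit value was 160 for small structures and 204 for round nucleosomes, the first percentile was 96 and 168, and the lowest value was 16 and 68. The median fuzziness score was 50.2 for small structures and 52.7 for nucleosomes. The series description gives a range of 207000000 to 753000000 reads for a sample. How many stand behind either list is unknown, and the summit values of the lists share no scale. With 1 library per group no comparison has a replicate check and no significance test was made. Wilson 95% intervals cover counting error only, and each SD is taken across 19 autosomes, as a measure of how a value varies between chromosomes.

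Small structures lay on earlier nucleosomes more often than chance gave, but most did not. A small structure was counted as matched when a round spermatid summit lay within 40 bp, and chance was the same share after moving the round list by 5000 bp. Of the small structures, 24.5% were matched (95% Wilson interval 24.46% to 24.54%), against 18.9% by chance. The excess was 5.64 ± 0.551 percentage points (SD over 19 autosomes), and the ratio to chance was 1.30 ± 0.0343. Seen from the nucleosomes, 21.1% had a small structure within 40 bp and 16.2% by chance. Neighbouring summits within either list were at least 100 bp apart, so each of the 991697 matches joined 1 small structure to 1 nucleosome.

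The matched share exceeded chance on all 19 autosomes. The lowest ratio was 1.24, on chromosome 11, where 24.2% of 270797 small structures were matched and chance gave 19.5%. The highest was 1.38, on chromosome 3, where 24.5% of 193824 were matched and chance gave 17.7%. The shares themselves ran from 23.7% on chromosome 10 to 25.6% on chromosome 14, a narrow range next to the distance from chance.

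**Figure D1:**
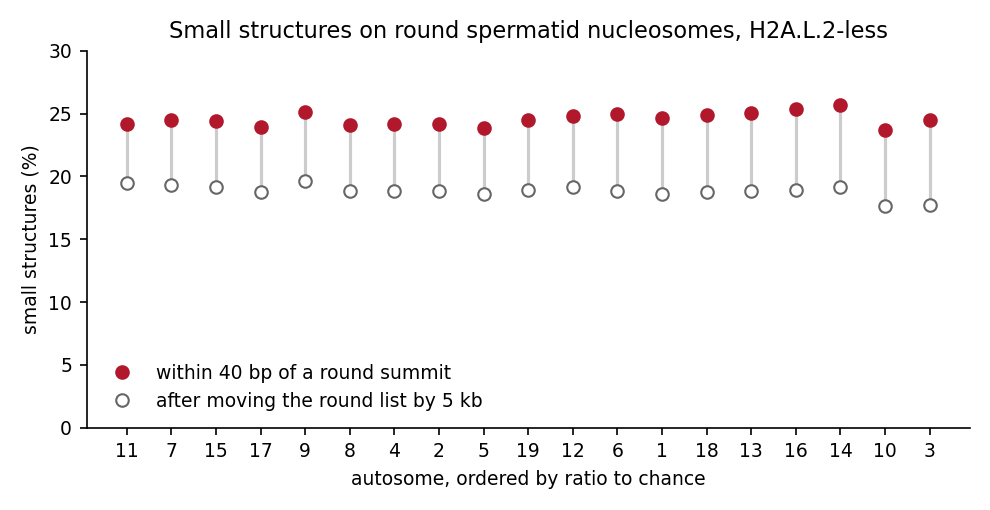
Percentage of H2A.L.2-less small structures (y axis, %) within 40 bp of a round spermatid summit on each autosome (filled points) and after moving the round list by 5 kb (open points), ordered by their ratio from 1.24 on chromosome 11 to 1.38 on chromosome 3. On all 19 autosomes the filled point lies above the open one.

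The ratio to chance was higher at closer distances, while the excess in percentage points was 0.845 at 0 bp, 3.72 within 20 bp and 7.76 within 73 bp. Listed summits had the same coordinate for 2.81% of small structures, against 1.964% after the shift, a ratio of 1.43. Since most summits lay on a 10 bp grid, a shared coordinate does not mean agreement to the base. The ratio was 1.36 within 20 bp, 1.30 within 40 bp and 1.25 within 73 bp, the reach of a nucleosome to either side of its centre. Nearest nucleosomes at 41 to 60 bp were still 1.22 times as frequent as by chance, those at 61 to 80 bp 1.02 times, and those at 81 to 100 bp 0.886 times. The median distance to the nearest nucleosome was 110 bp, with quartiles at 50 and 260 bp, and after the shift it was 140 bp. Outside the 73 bp on either side of a nucleosome summit lay 61.2% of small structures, against 68.9% after the shift.

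The density of small structures around nucleosomes had a peak at the summit and then a wave that ran counter to the nucleosomes themselves. Densities were taken in 10 bp bins over the mean from 800 to 1000 bp. The density was 1.41 ± 0.0400 at the summit (SD over 19 autosomes), 1.22 ± 0.0313 in a shoulder at 50 bp, and 0.911 ± 0.0216 at 100 bp. Beyond the first neighbour it was high where round spermatid nucleosomes were sparse. At 290 bp the small structures stood at 1.14 ± 0.0179 and the nucleosomes around each other at 0.669 ± 0.0117. At 370 bp the order was opposite, with 0.931 ± 0.00880 for small structures and 1.552 ± 0.0242 for nucleosomes. The alternation went on at 470 bp (1.10 for small structures, 0.695 for nucleosomes), 560 bp (0.944 and 1.44) and 660 bp (1.07 and 0.761). Other lists gave similar densities of small structures at 290 and 370 bp. Around H2A.L.2-less spermatocyte nucleosomes they were 1.157 and 0.943, and for WT small structures around WT round nucleosomes 1.16 and 0.942. Around H2A.L.2-less condensing nucleosomes the wave was absent, with 1.049 and 1.045.

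At the first neighbour, the pattern was weak. At 180 bp, where nucleosomes were most frequent around each other at 1.83 times the background, small structures had a density of 1.06 ± 0.0156. With the round list moved by 5 kb, the density of small structures lay between 0.9999 and 1.007 at the distances given here. Around themselves, small structures showed a peak of 1.54 at 140 bp, which is also the width of each listed position, and values from 1.09 at 290 bp to 1.03 at 660 bp without a wave.

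**Figure D2:**
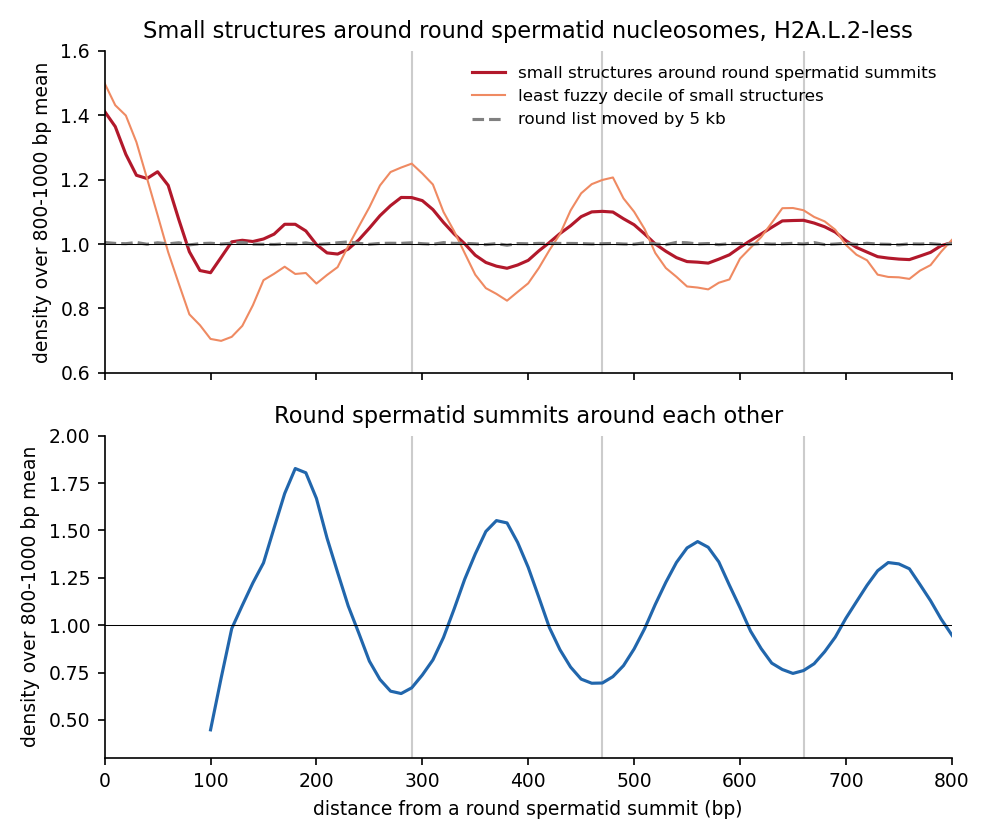
Density of small structures around round spermatid summits (upper panel; red, all, orange, least fuzzy decile, dashed, round list moved by 5 kb) and of round spermatid summits around each other (lower panel), by distance in bp, each over its mean from 800 to 1000 bp. Grey lines at 290, 470 and 660 bp mark places where small structures stand at 1.14, 1.10 and 1.07 and nucleosomes at 0.669, 0.695 and 0.761.

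The wave was also present for small structures that lay off every called nucleosome. For those over 73 bp from every round summit, the density of round summits was 1.22 at 290 bp and 0.831 at 370 bp. Points picked in the same way against the shifted list gave 1.03 and 0.933, which is what the spacing of the nucleosomes alone produces. For small structures within 40 bp of a summit, the values were 0.857 at 290 bp and 1.27 at 370 bp, against 0.780 and 1.34 for points picked against the shifted list. Because these small structures were picked for lying on a summit, neighbouring summits at the usual repeat follow from the choice. At 180 bp the small structures on a summit stood at 1.57 and the shifted points at 1.495. The small structures were thus higher than the shifted points at the first neighbour and lower at 370 bp.

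Higher small structures sat on the round nucleosomes of their own genotype less often than low ones. In the lowest decile of summit value (median 96) 26.8% were matched and chance gave 18.4%, an excess of 8.40 ± 0.719 points and a ratio of 1.46 ± 0.0505. In the highest decile (median 368) 20.8% were matched and chance gave 19.2%, an excess of 1.62 ± 0.809 points and a ratio of 1.08 ± 0.0441. The ratio was lower in each decile than in the one before, with 1.34 in the fifth and 1.30 in the sixth. The lowest decile ended and the second began at a value of 96, also the first percentile of the list. Ties at this value were divided between them at random, and their ratios were 1.46 and 1.44. The highest decile was not evenly removed from nucleosomes: its density was 1.32 at the summit but 0.686 at 100 bp, against 1.499 and 1.03 for the lowest decile.

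Fuzziness divided the small structures as strongly when matches were counted within 40 bp, but not within 73 bp. In the least fuzzy decile (median score 36.2) the ratio was 1.39 ± 0.0361, in the third decile 1.42 ± 0.0460, and in the most fuzzy decile (median score 61.9) 1.03 ± 0.0231, with 19.7% matched and 19.1% by chance. With matches counted within 73 bp, the difference between the least and most fuzzy deciles was 0.158, against 0.355 within 40 bp. The difference between the highest and lowest height deciles was -0.382 within 73 bp and -0.373 within 40 bp. The least fuzzy decile also had the deeper wave, with densities of 1.499 at the summit, 0.705 at 100 bp, 1.25 at 290 bp and 0.845 at 370 bp. The most fuzzy decile had hardly a peak at the summit (1.06) and stood higher beside it, at 1.17 at 50 bp and 1.15 at 140 bp.

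Height and fuzziness were nearly unrelated across small structures (Spearman's rho 0.0589, n = 4047666 positions of 1 library), and both contributed. When each was cut into terciles, the low, moderately fuzzy small structures had the highest ratio, 1.5004 ± 0.0465, with 27.7% matched. The high and most fuzzy ones were below chance, at 0.957 ± 0.0314, with 18.2% matched and 18.996% by chance, and their ratio was under 1 on every autosome (highest 0.998). High but sharp small structures stood at 1.33 ± 0.0301.

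On the nucleosome side, height made little difference. The ratio lay between 1.28 and 1.32 in the 10 deciles of nucleosome summit value, with autosomal SDs of 0.0301 to 0.0699. By nucleosome fuzziness, the ratio was 1.28 ± 0.0225 in the least fuzzy decile, 1.35 ± 0.0364 in the second and 1.19 ± 0.0434 in the most fuzzy one. Within the 991697 pairs, the heights of small structure and nucleosome had a rho of -0.0629 and their fuzziness scores a rho of 0.0874, against -0.0137 and 0.0172 for the 763211 pairs made by the shift. These correlations are too weak to order positions.

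**Figure D3:**
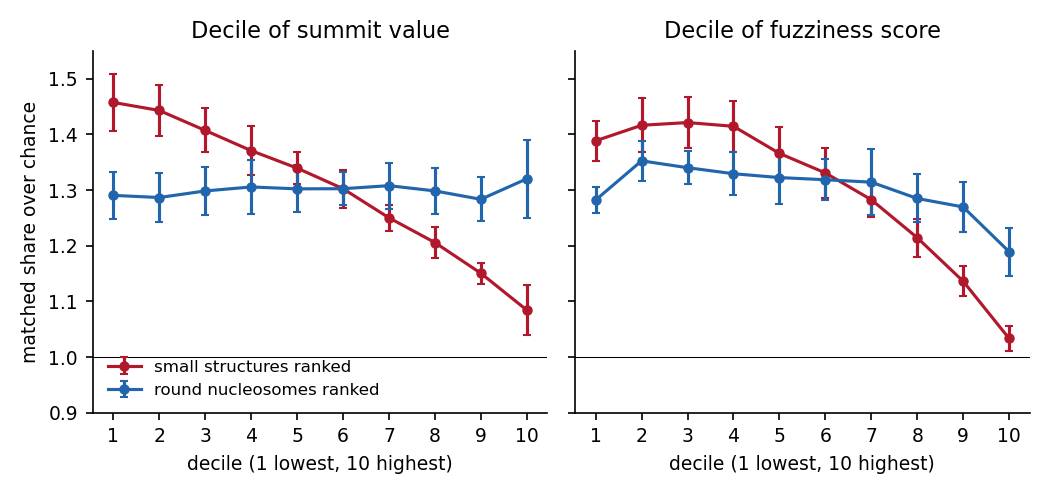
Matched share over chance (y axis, within 40 bp) by decile of summit value (left) and of fuzziness score (right), for small structures (red) and round nucleosomes (blue) of H2A.L.2-less cells; bars are SDs over 19 autosomes. The red points go from 1.46 to 1.08 with height and from 1.39 to 1.03 with fuzziness, while the blue points by height stay between 1.28 and 1.32.

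Regular arrays were next examined, since they show where a nucleosome sits among its neighbours. An array was a run of at least 5 round summits with gaps of 160 to 220 bp, which gave 18797 arrays with 103609 nucleosomes, 2.204% of the list. Array nucleosomes carried a small structure in 25.5% of cases, against 21.0% for the others, but chance differed as well, at 19.3% and 16.2%. The ratios were 1.32 ± 0.0673 and 1.30 ± 0.0339, a difference of 0.0200 that lay within the counting error (half-width 0.0217). It was -0.0140 within 20 bp, with a half-width of 0.0313. Within 73 bp it was 0.0515 (half-width 0.0154), and with a shift of 20000 bp 0.0454 (0.0225). When only the part of each list from its median height up was kept, it was 0.198 (0.0782). Arrays of at least 3 gave 0.0377 (0.00957). Whether the difference exceeded its counting error thus depended on these choices. The excess over chance was 6.17 ± 0.662 percentage points in arrays and 4.83 ± 0.219 elsewhere. The higher share in arrays thus went with a higher chance share, set by the local number of small structures, and with a larger excess.

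Place within the array made no difference beyond the spread over autosomes. The ratio was 1.29 ± 0.104 for the outermost nucleosomes, 1.32 ± 0.0752 for the second, 1.36 ± 0.109 for the third from the nearer end, and 1.31 ± 0.239 further in. In arrays of 8 or more nucleosomes (781 arrays) 29.7% carried a small structure and chance gave 22.1%, a ratio of 1.34 ± 0.265. No small structure lay on any nucleosome in 28.1% of arrays, against 42.4% after the shift, and all nucleosomes carried one in 86 arrays, against 49 after the shift.

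Over the whole list, nucleosomes with regular neighbours carried small structures slightly more often. The ratio was 1.28 ± 0.0311 with no neighbour at 160 to 220 bp, 1.32 ± 0.0422 with 1 and 1.35 ± 0.0537 with 2. By distance to the nearest neighbour, the ratio was highest at over 220 and up to 300 bp (1.39 ± 0.0457) and lower where neighbours were closer than 160 bp (1.23 ± 0.0381) or beyond 1000 bp (1.16 ± 0.0592).

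The gaps between neighbouring nucleosomes showed where the small structures lay instead. In the 1071447 gaps of 160 to 220 bp, small structures were 1.40 times as frequent as chance within 30 bp of a nucleosome summit, 1.26 times at 30 to 59 bp, 1.09 times at 60 to 89 bp and 0.912 times from 90 bp on, in the linker. Inside arrays the same series was 1.36, 1.31, 1.21 and 1.04. By the share within 40 bp of the middle, all gaps of 160 to 220 bp had 17.3% against 16.2% by chance. That ratio was 1.07 ± 0.0427 and above 1 on every autosome (lowest 1.01). In the 578495 gaps of 340 to 420 bp, which leave room for 1 nucleosome that was not called, 13.9% had a small structure within 40 bp of the middle, against 15.8% by chance, a ratio of 0.878 ± 0.0176. The middle of these gaps was thus poorer in small structures than chance on every autosome (highest ratio 0.898). In the 318084 gaps of 530 to 610 bp, with room for 2 nucleosomes, the middle falls between them. There the share was 16.8% against 15.1% by chance, a ratio of 1.12 ± 0.0339, while at 180 to 209 bp from the nearer summit small structures were 0.829 times as frequent as chance.

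**Figure D4:**
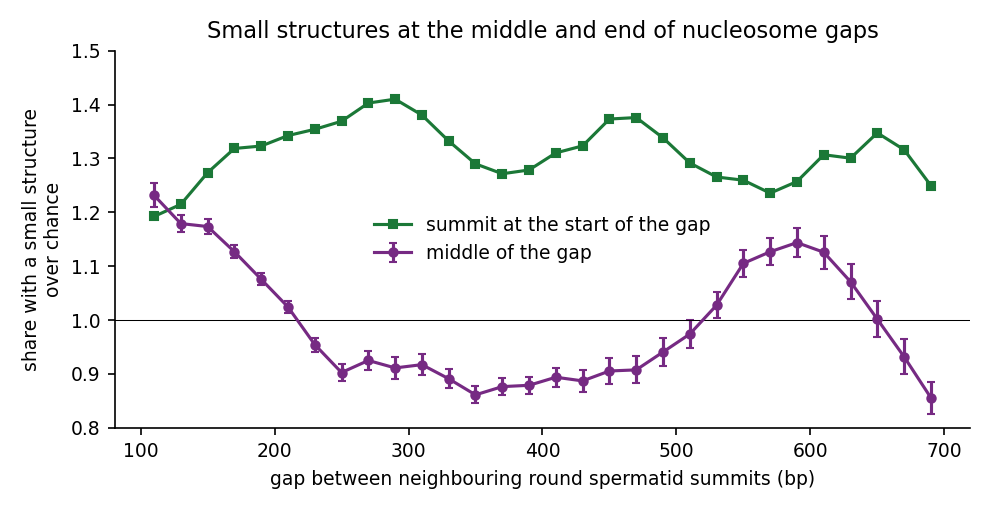
Share with a small structure within 40 bp over chance (y axis) at the middle of gaps between neighbouring round spermatid summits (purple, bars are 95% counting intervals) and at the summit that starts the gap (green), by gap length in bp (20 bp bins). The middle is at 0.861 for gaps of 340 to 359 bp and at 1.14 for gaps of 580 to 599 bp, while the summit lies above 1.19 at all gap lengths shown.

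The 3 longest arrays show the single positions. The longest, on chromosome 5 from 95962911 to 95966981 (mm9), had 22 nucleosomes with gaps of 170 to 220 bp and summit values of 200 to 528. It held 18 small structures with summit values of 80 to 656, and 9 of them lay within 40 bp of a nucleosome summit. The tallest small structure, at 95963531 with a value of 656, was 40 bp from the nucleosome at 95963491, and the one at 95965021 with a value of 272 was 10 bp from the nucleosome at 95965031. Others lay at 70 bp, at the edge of a nucleosome, such as that at 95963181 with a value of 552. On chromosome 13 from 13018551 to 13022051, 19 nucleosomes with values of 200 to 716 met 19 small structures, 10 of them within 40 bp. The tallest small structure there, at 13020041 with a value of 1008, was 70 bp from the nearest nucleosome summit. On chromosome 4 from 73297061 to 73299761, 15 nucleosomes with values of 216 to 384 met 8 small structures, none of them higher than 180 and 4 of them within 40 bp. The arrays on chromosomes 5, 13 and 4 had median nucleosome values of 364, 560 and 256. The round list had a median of 204 and a 99th percentile of 384, so these arrays are not typical in height. Chance was not computed for single arrays. Their median gaps were 190 to 195 bp, against 340 bp over the round list, and closer summits raise the matches made by chance. These counts thus cannot be set against the matched share of the whole list.

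The same small structures were then placed on the other nucleosome lists, to see whether round spermatids stood out. They matched the nucleosomes of H2A.L.2-less spermatocytes, 2 stages before, more often: 31.4% against 21.1% by chance, an excess of 10.2 ± 1.005 points and a ratio of 1.48 ± 0.0728. On the nucleosomes of the same condensing spermatids the share was 23.2% against 18.0%, a ratio of 1.29 ± 0.0322, as on round spermatids within the spread. The dependence on height had another sign there. On condensing nucleosomes the excess was 4.62 ± 0.331 points in the lowest and 8.20 ± 1.05 points in the highest decile of small-structure height, whereas on spermatocyte nucleosomes it was 13.1 ± 1.26 and 3.14 ± 0.835 points. Split by both lists, 7.20% of small structures lay on a round and a condensing nucleosome, 17.3% on a round one alone, 16.0% on a condensing one alone and 59.5% on neither.

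H2A.L.2-less small structures matched the round spermatid nucleosomes of WT cells far more often than those of their own genotype. The share was 40.96% against 24.995% by chance, an excess of 16.0 ± 1.71 points and a ratio of 1.64 ± 0.112. Here the share did not fall with small-structure height: it was 38.8% in the lowest and 39.8% in the highest decile. Chance rose from 21.8% to 28.9%, so the ratio was 1.78 ± 0.120 in the lowest and 1.38 ± 0.0792 in the highest decile. The ratio on the WT list was higher than on the H2A.L.2-less list in 2141 of 2143 windows of 1 Mb. WT small structures gave a similar pair of values, 1.73 ± 0.119 on WT and 1.39 ± 0.0447 on H2A.L.2-less round nucleosomes. The difference between the round lists was thus present for both small-structure lists. The WT round list was longer, with 5322422 autosomal positions and a median summit value of 240. With the 3852646 highest positions of each list, the ratios were 1.69 on WT and 1.29 on H2A.L.2-less round nucleosomes. The part of depth in this difference was not tested, and with 1 library of each, genotype and library cannot be told apart.

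Round nucleosomes of H2A.L.2-less cells differed in the same way according to whether WT round spermatids had them too. A WT round summit lay within 40 bp of 49.3% of them, and these carried a small structure in 28.1% of cases, against 17.7% by chance, a ratio of 1.59 ± 0.0837. The remaining 50.7% carried one in 14.3%, against 14.8% by chance, a ratio of 0.964 ± 0.0101 that was under 1 on every autosome (highest 0.979). The contrast held within terciles of nucleosome height: 1.65 and 0.995 in the low, 1.61 and 0.967 in the middle and 1.52 and 0.912 in the high tercile. Nucleosomes that H2A.L.2-less spermatocytes already had, 44.6% of the list, stood at 1.47 ± 0.0641, and those without a spermatocyte counterpart at 1.15 ± 0.0170. For the 35.3% found in neither of these lists, 12.5% carried a small structure and chance gave 14.3%, a ratio of 0.873 ± 0.0186. These classes were picked by distance to lists that small structures also matched above chance. Chance was not picked in the same way, so a value under 1 need not mean that small structures avoid these nucleosomes. The part that the choice of classes has in these ratios was not tested.

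The match also varied along the chromosomes. The 2143 windows of 1 Mb in which each list held 500 or more summits had ratios from 1.04 to 2.44, with a median of 1.33 and quartiles at 1.23 and 1.49. When the windows were ordered by their number of small structures, the poorest quintile (500 to 823 small structures) had 26.6% matched and 16.2% by chance, and the richest (2772 to 4978) had 22.7% and 19.2%. The excess was 10.4 points in the poorest and 3.52 points in the richest quintile. The median number of H2A.L.2-less round nucleosomes per window was 1713 in the poorest and 2144 in the richest quintile, and that of WT round nucleosomes was 1457 and 3187. Across windows, small-structure numbers had a rho of 0.604 with H2A.L.2-less and 0.969 with WT round nucleosome numbers (n = 2143 windows of the same libraries, which are not independent).

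On H2A.L.2-less round nucleosomes the dependence on height was present in all 5 quintiles. The ratio was 1.79 in the lowest and 1.14 in the highest decile of small-structure height in the poorest windows, and 1.28 and 1.08 in the richest. Height also went with the window. The richest windows held 247903 small structures of the highest and 85510 of the lowest decile, and the poorest held 11189 and 46762. The part of this in the height difference over the whole list was not tested. On WT round nucleosomes the excess was 26.6 points in the poorest and 10.2 points in the richest windows, above the values on H2A.L.2-less round nucleosomes in both. On condensing nucleosomes it was 7.53 points in the poorest and 4.40 points in the richest windows, below the value on H2A.L.2-less round nucleosomes in the first and above it in the second.

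**Figure D5:**
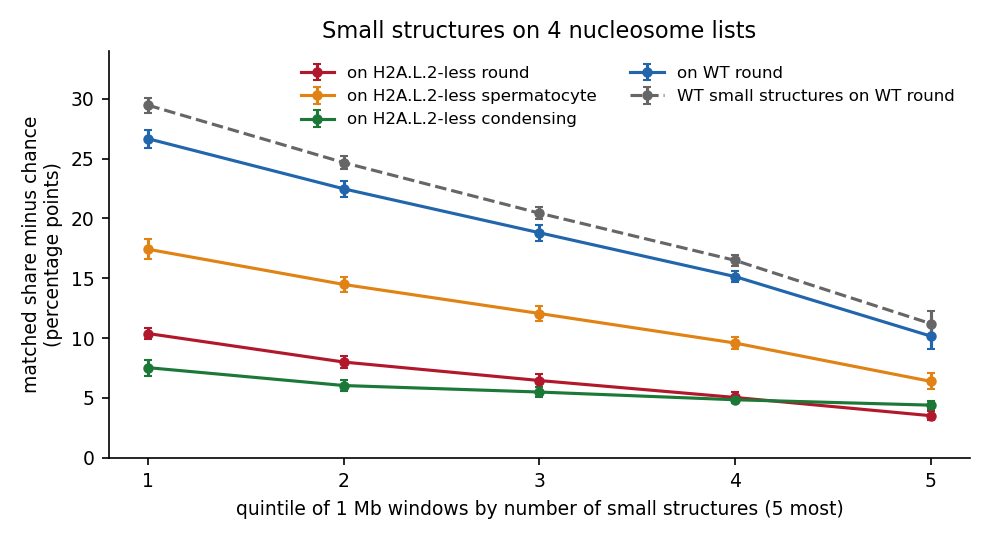
Matched share minus chance (y axis, percentage points) of H2A.L.2-less small structures on 4 nucleosome lists, and of WT small structures on WT round nucleosomes (dashed), by quintile of 1 Mb windows from fewest to most small structures; bars are SDs over 19 autosomes. On H2A.L.2-less round nucleosomes the values go from 10.4 to 3.52 points, below those on WT round nucleosomes (26.6 to 10.2 points) in all quintiles.

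The windows with the lowest ratios were rich in small structures. On chromosome 17 from 56000001 to 57000000, 4421 small structures met 1801 round nucleosomes, 17.7% were matched and chance gave 17.1%, a ratio of 1.04. Chromosome 7 from 51000001 to 52000000 (3934 small structures) and chromosome 2 from 180000001 to 181000000 (3945) also had a ratio of 1.04. The 3 highest windows were poor in small structures. They lay on chromosome 17 from 39000001 to 40000000, with 528 small structures, 29.2% matched and a ratio of 2.44, and on chromosome 13 from 87000001 to 88000000 and from 80000001 to 81000000, with 598 and 503 small structures and ratios of 2.42 and 2.41. The 3 highest windows held numbers of small structures near the minimum of 500, and no counting interval is given for single windows. The part of counting error in these extremes was not tested. Genes in these windows were not analysed here.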

How the data were processed

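Per the submitters' processing notes, the tools were Bowtie2 2.2.9 and deepTools 2.2.4 with genome build mm9, and 3 sequencing runs per sample were merged, per the series description. Version and thresholds of the position caller are not given in the sources used here. Summit values, as deposited by the authors, are a coverage signal in whole multiples of 4, with no visible normalization to depth. The deposited fuzziness score is the caller's own. Of 8 lists 6 were used, grouped by sample titles, with 1 library each. Summits lay mostly on a 10 bp grid (97.0% of small structures, 95.5% of round nucleosomes), which limits distances to about 10 bp. Deciles and equal numbers broke ties in seeded random order. For classes of nucleosomes the small-structure list was moved instead, by the same distance. Named windows are the 3 highest and 3 lowest ratios and named arrays the 3 longest. Members, measures and lists were chosen with earlier results of these data known. The comparisons with WT round nucleosomes, by window quintile and within height terciles were added after the data were seen. In all, 6 pairs of a small-structure and a nucleosome list were compared. The overlap of the small-structure lists of both genotypes was also added after the data were seen. No test across samples was possible. No sequence is shown, since positions are on mm9 and no mm9 sequence was used here. Python 3.11.15, numpy 2.4.6, pandas 2.3.3, scipy 1.17.1 and matplotlib 3.10.9 were used. Matching, density and array code was tested on simulated data.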

Additional observations from a re-analysis of the deposited data

How the results depend on the processing

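The 6 values that carry the report were recomputed under up to 11 alternatives. In the main setting the ratio to chance was 1.299, the highest minus the lowest height decile -0.373, the least minus the most fuzzy decile 0.355, array minus other nucleosomes 0.0200, WT minus H2A.L.2-less round list 0.339, and nucleosomes with minus without a WT counterpart 0.622. Within 20 bp these were 1.36, -0.310, 0.453, -0.0140, 0.384 and 0.571, so the array difference changed sign, with a counting half-width of 0.0313. Within 73 bp the ratio was 1.25, the fuzziness difference 0.158, the array difference 0.0515, the list difference 0.293 and the counterpart difference 0.652. With the shift in the opposite direction the ratio was 1.304. With a shift of 20000 bp it was 1.31, and the array, list and counterpart differences were 0.0454, 0.359 and 0.638. When only the higher-valued part of each list, from its median up, was kept, the 6 values were 1.16, -0.280, 0.521, 0.198, 0.449 and 0.491. With equal numbers the height and list differences were -0.407 and 0.388, and without the highest 0.1% of positions the height difference was -0.389. Arrays of at least 8 gave a difference of 0.0440. Whether the array difference exceeds its counting half-width is decided by these choices. The cause was not tested. Values under alternatives that are not given here moved by less than their counting interval, and no value but the array difference changed direction. The list and counterpart differences were chosen after seeing the data. Numbers of positions depend on each list's calling floor, and summits below it are absent from all shares. No paired analysis was possible because each group has 1 library.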

Other observations

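WT small structures, which were called from another library, gave the same order over the classes of H2A.L.2-less round nucleosomes. On those with a WT round counterpart their share was 39.3% against 22.9% by chance, a ratio of 1.72. On those without one it was 19.9% against 19.6%, a ratio of 1.02. On nucleosomes found neither in WT round spermatids nor in H2A.L.2-less spermatocytes the ratio was 0.901. Chance has the same limit for these classes as for the H2A.L.2-less small structures. A WT small structure lay within 40 bp of 75.7% of the H2A.L.2-less small structures, against 29.3% after moving the WT list by 5000 bp, a ratio of 2.58 ± 0.263 (SD over 19 autosomes). Those with a WT counterpart matched H2A.L.2-less round nucleosomes at 1.31 times chance, against 1.25 for the remaining 24.3%.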
